A study of Sus scrofa with 92 samples.

Results

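Amino acid transporters are membrane proteins that carry amino acids, and in some families neurotransmitters, creatine or osmolytes, across the surface of a cell or an organelle. The genes described here are the 46 pig genes whose symbol starts with SLC1A, SLC3A, SLC6A, SLC7A, SLC36A, SLC38A or SLC43A and that have a row in the deposited tables. They are 46 of 25322 gene IDs, of which 11804 carry a symbol, and 1 further gene of these families is left out. A RefSeq list of pig genes holds 12 more symbols with these starts that have no row under that symbol here, among them SLC7A5 and SLC7A6, so those genes were not analysed here.

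RNA of pigs (Sus scrofa) aged 60 days was sequenced in 92 libraries, 1 per breed and tissue, and no group was treated or genetically changed. The tissues were kidney, liver, subcutaneous adipose, heart and ovary (9 libraries each), spleen, psoas major muscle and longissimus dorsi muscle (10 each) and lung (8), and a further 9 libraries are labelled as mixtures of several tissues. The Chinese breeds were Tibetan wild boar, Rongchang, Meishan, Jinhua and Bamei, and the Western breeds Berkshire, Hampshire, Landrace, Large White and Piétrain. That grouping by origin is general knowledge of the breeds and not a label. Tibetan wild boar had spleen and both muscles only, and Rongchang had no lung. The labels do not say whether the tissues of a breed came from 1 animal, whether animals were pooled, or which tissues a mixture holds. The p-values thus measure only the spread between these libraries. Each is taken as 1 replicate per breed and tissue, and a breed gives more than 1 library where both muscles form 1 class.

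These carriers work in families with known roles. The SLC1 family takes up glutamate or exchanges small neutral amino acids, the SLC38 family takes up glutamine and alanine with sodium, and the SLC6 family carries neurotransmitters, creatine, betaine and, at the brush border of kidney and gut, neutral amino acids. The light chains of the SLC7 family reach the membrane bound to a heavy chain of the SLC3 family, while the cationic SLC7 members carry arginine and lysine alone. In the kidney such carriers recover filtered amino acids from the urine, and in the liver they bring amino acids to the cells that break them down.

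Levels below are FPKM (fragments per kilobase of transcript, relative to the library's total) divided by a scaling factor per library, and are called scaled FPKM. The factors were needed because the deposited values differ in scale. Before scaling, the median gene of the ovary libraries stood 0.68 (log2) above the common reference, kidney 0.28 above, liver 0.54 below and longissimus 0.70 below, and total FPKM per library ran from 519075 to 2196138. The number of reads is unknown, so no counting error can be given. Summed markers of the labelled tissue were high in every tissue. The summed level of 4 heart markers was at least 13623 scaled FPKM in heart libraries, that of 7 hepatocyte markers at least 32055 in liver, and that of 4 proximal tubule markers at least 442 in kidney. Of these 4 proximal tubule markers, 1 had a low median in kidney. Skeletal muscle markers (4 genes) summed to 24.9 to 2198 in adipose libraries, with the highest sum in Meishan. The ovary of Meishan had the lowest sum of 4 ovary markers, 327, against a median of 1199 over the 9 ovaries.

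Kidney and liver held the highest summed levels of the 46 transporter genes. The sum averaged 719 ± 77.5 scaled FPKM in liver and 593 ± 76.5 in kidney (SD, n = 9 each), against 154 ± 13.3 in heart (SD, n = 9). The sums of the other tissues lay between: adipose reached 410 ± 54.5 (SD, n = 9), and lung 172 ± 12.98 (SD, n = 8). The order of liver and kidney depends on the scaling, since the median factor was 0.69 in liver and 1.22 in kidney. Kidney was the tissue of the highest mean for 13 genes, ovary for 10, liver for 7, adipose for 6, spleen for 4, lung for 3, and heart, psoas and longissimus for 1 each. These counts rest on the same scaling. At a mean of 1 scaled FPKM or more, 12 genes were present in all 9 tissues and 10 in 1 tissue only.

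**Figure D1:**
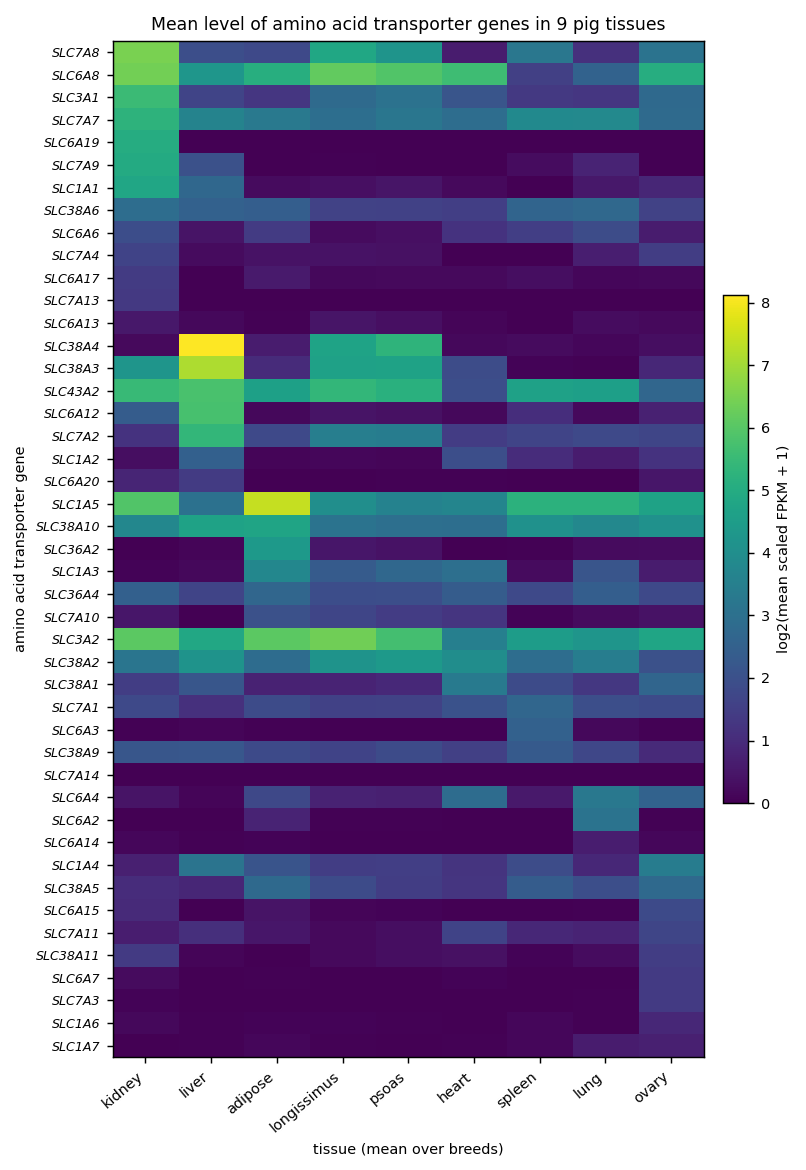
Mean level of 45 of the 46 genes (rows, as log2 of the mean scaled FPKM plus 1) in the 9 tissues (columns), with genes ordered by the tissue of their highest mean. SLC38A4 in liver, at 279 scaled FPKM, is the brightest cell, and SLC6A19 is bright in kidney alone.

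Tissue explained most of the spread of these genes. Over the libraries of 9 breeds and 8 tissues (lung and Tibetan wild boar left out), tissue took a median of 89.6% of the sum of squares of the 41 genes that passed the filter, and 82.7% of that of all 16996 genes tested. Breed took a median of 1.59% of it in the transporter genes and 4.23% in all genes. The contrast was smaller with FPKM as deposited. Tissue then took 90.8% in the transporter genes and 88.1% in all genes, and breed 1.51% and 2.94%. These shares are a description, without a test.

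To ask which transporters mark which organ, limma (linear models with moderated statistics, breed as block) was fitted to log2(scaled FPKM + 1) of the 83 single-tissue libraries, with both muscles as 1 class. Psoas and longissimus of a breed were separate libraries of that class, although same-breed muscles deviated together. A gene was called for a class when it was above each of the other 7 classes, with every log2 difference above 1 and the largest Benjamini-Hochberg adjusted p below 0.05. Only genes that reached 1 FPKM in 3 or more libraries were tested, which kept 43 of the 46; SLC6A13 and SLC7A14 were among those that stayed below that. Some class was called for 17 of the 43, against 23.1% of all 17207 genes tested. Since a gene with 1 high tissue passes the filter through that tissue, this count is a description. Each SE and p of this fit rests on a spread common to all classes. For a gene near 0 in most tissues, they understate the spread between the libraries of its high tissue. In bulk tissue, fewer cells of a type and less RNA per cell cannot be told apart.

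Kidney was called for 7 transporter genes (the background over all genes is 2.71%), most of them known from the recovery of amino acids in the tubule. SLC6A19, the sodium-coupled carrier of neutral amino acids in the brush border, ranged from 9.52 to 62.3 scaled FPKM in kidney with a median of 31.3. In no library of any other single tissue did it exceed 0.0772. Its level in kidney was 4.84 ± 0.12 (log2, SE) above that in adipose, the nearest class (limma, adjusted p = 2.826e-48).

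SLC3A1 and SLC7A9 encode the heavy and the light chain of the carrier of cystine and dibasic amino acids whose loss causes cystinuria in humans. SLC3A1 had 35.3, 41.7 and 64.8 scaled FPKM as lowest, median and highest value in kidney, and SLC7A9 had 19.7, 29.0 and 41.6. SLC3A1 was 2.60 ± 0.13 (log2, SE) above skeletal muscle, the nearest class, and SLC7A9 was 3.10 ± 0.14 above liver (limma, adjusted p = 2.010e-30 and 9.631e-32). The kidney libraries did not overlap with those of any other tissue for either gene. In kidney the ratio of SLC3A1 to SLC7A9 levels averaged 1.55 ± 0.36 (SD, n = 9), from 1.11 in Bamei to 2.29 in Jinhua, so the heavy chain was above the light chain in every kidney. Outside the kidney the pair varied with the tissue. In psoas SLC3A1 averaged 7.28 ± 1.78 scaled FPKM (SD, n = 10), where SLC7A9 averaged 0.0112, and in ovary it averaged 5.88, where SLC7A9 averaged 0.00925. In liver the light chain was usually above the heavy chain, with SLC3A1 at a mean of 2.17 and SLC7A9 at 3.02, and their ratio ran from 0.353 to 6.45 with a median of 0.522. In lung the ratio ran from 0.957 to 5.93 with a median of 2.401.

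SLC7A7 and SLC7A8 are the basolateral light chains that let amino acids out of the tubule cell, toward the blood. SLC7A8 (exchanger of neutral amino acids) ranged from 51.5 to 148 scaled FPKM in kidney with a median of 68.6, against 5.33 to 89.5 with a median of 23.0 in longissimus. Those ranges overlapped through the longissimus of Tibetan wild boar, the highest of that muscle. The fitted difference of kidney over skeletal muscle was 2.33 ± 0.25 (log2, SE; limma, adjusted p = 1.199e-13). SLC7A7 (exchanger of cationic and neutral amino acids) had 26.2, 37.7 and 49.1 scaled FPKM as lowest, median and highest value in kidney, against 9.44, 12.97 and 22.4 in spleen, the nearest class, so that the 2 tissues did not overlap. Its difference was 1.45 ± 0.10 (log2, SE; adjusted p = 4.522e-21).

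SLC1A1, the glutamate and cystine carrier of the tubule brush border, ranged from 21.1 to 34.5 scaled FPKM in kidney with a median of 26.8. Liver, the nearest class, ranged from 1.73 to 17.3, and its highest library was that of Piétrain. Kidney exceeded liver by 2.31 ± 0.15 (log2, SE; limma, adjusted p = 3.451e-23), and the ranges did not overlap. SLC7A13, a light chain found in the human proximal tubule with SLC3A1, was low in absolute terms, at 0.817 to 2.24 scaled FPKM in kidney with a median of 1.62. It was at or below 0.0799 in every library of the other tissues, and its difference was 1.31 ± 0.04 (log2, SE; adjusted p = 9.173e-40). Across the 9 tissue means, the gene whose profile was most like that of SLC6A19 was SLC7A13 (Pearson r = 0.99993), and for SLC1A1 it was SLC7A9 (r = 0.97), which only describes that their peaks coincide in kidney.

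Other carriers were high in kidney without being called for it. SLC6A8, the creatine transporter, averaged 83.8 ± 14.0 scaled FPKM in kidney (SD, n = 9), 71.3 ± 31.9 in longissimus and 59.3 ± 24.9 in psoas (SD, n = 10 each), and 47.9 ± 9.77 in heart (SD, n = 9). Kidney was above skeletal muscle by 0.51 ± 0.20 (log2, SE; limma, adjusted p = 0.0190), and heart did not differ from skeletal muscle beyond the spread between breeds (heart minus muscle -0.30 ± 0.20, adjusted p = 0.221). Spleen was its low end. SLC6A8 averaged 1.90 scaled FPKM in spleen and 4.82 in lung, a difference of -1.02 ± 0.24 (log2, SE; adjusted p = 1.376e-04), and spleen lay below each other class, a call made for 0.575% of all genes. That call is close to its limit of 1, and it is lost without Jinhua, without Rongchang, with quantile normalization and without the block. SLC6A6, the taurine transporter, ranged from 1.84 to 4.14 scaled FPKM in kidney (mean 2.81) and from 1.89 to 3.66 in lung (mean 2.66), which did not differ beyond their spread (lung minus kidney -0.07 ± 0.12 in log2, SE; limma, adjusted p = 0.637).

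Liver was called for 4 transporter genes (the background over all genes is 4.99%), carriers of small neutral amino acids, glutamine, cationic amino acids and betaine. SLC38A4, a sodium-coupled carrier of neutral amino acids of hepatocytes, ranged from 180 to 460 scaled FPKM in liver with a median of 251. In psoas it ranged from 19.0 to 92.3 and in longissimus from 9.12 to 62.8, and in the libraries of the other single tissues it was at most 1.10. The liver libraries all lay above those of muscle, by 3.27 ± 0.17 in log2 (SE; limma, adjusted p = 2.488e-28).

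SLC38A3, which moves glutamine in and out of hepatocytes with sodium and protons, had 79.8, 133 and 214 scaled FPKM as lowest, median and highest value in liver. Its muscle levels reached 46.8 in psoas and 38.4 in longissimus, so liver did not overlap with muscle, and the difference was 2.54 ± 0.16 (log2, SE; limma, adjusted p = 3.484e-24). SLC7A2, the cationic carrier of liver and muscle, ranged from 25.04 to 60.7 scaled FPKM in liver with a median of 40.2, against at most 16.2 in longissimus and 15.4 in psoas. The difference of liver over muscle was 2.05 ± 0.15 (log2, SE; adjusted p = 1.554e-20).

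SLC6A12, the betaine and GABA transporter, ranged from 29.9 to 79.1 scaled FPKM in liver with a median of 49.7, and from 0.671 to 8.10 in kidney with a median of 3.72. Liver lay above kidney in each of 9 breeds, and the tissue-class difference was 3.54 ± 0.17 (log2, SE; limma, adjusted p = 2.541e-30). Liver also had the highest mean of SLC43A2, a facilitated carrier of large neutral amino acids, at 54.2 ± 15.3 scaled FPKM (SD, n = 9). Kidney followed at 44.0 ± 8.81 (SD, n = 9), and the 2 did not differ beyond their spread (liver minus kidney 0.27 ± 0.17 in log2, SE; adjusted p = 0.142).

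Liver and kidney were then set against each other within the 9 breeds that have both (limma, breed as block). Of 32 transporter genes tested, 10 were higher in liver and 18 were lower (the background over all genes is 37.7% higher and 39.0% lower). With FPKM as deposited, the split was 6 higher and 21 lower. Past a log2 difference of 1 in size, 6 were higher and 14 lower. The median log2 difference of the 32 genes was -0.74, against -0.0034 over all genes tested.

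The 6 that rose most in liver over kidney were SLC38A4 (7.73 ± 0.13, log2 ± SE), SLC7A2 (4.08 ± 0.11), SLC6A12 (3.49 ± 0.23), SLC38A3 (2.90 ± 0.22), SLC1A4 (2.31 ± 0.08) and SLC1A2 (2.03 ± 0.14), each with the same sign in 9 of 9 breeds. SLC1A4 exchanges alanine, serine and cysteine, and SLC1A2 is the high-affinity glutamate carrier known from astrocytes and from hepatocytes around the central vein. SLC1A2 had 2.30, 4.81 and 6.23 scaled FPKM as lowest, median and highest value in liver and averaged 0.241 in kidney.

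Among those that fell in liver relative to kidney, SLC6A19 differed by -4.74 ± 0.22, SLC7A8 by -4.52 ± 0.23, SLC3A1 by -3.88 ± 0.10, SLC7A9 by -3.08 ± 0.22 and SLC1A5 by -2.89 ± 0.12 (log2 ± SE). SLC1A5, the exchanger of glutamine and other neutral amino acids, averaged 7.10 scaled FPKM in liver and 59.0 in kidney. The adjusted p of these 11 genes lay between 6.820e-13 and 2.952e-07, and all 18 that fell had the lower value in liver in 9 of 9 breeds. SLC38A5, SLC38A9, SLC43A2 and SLC7A11 were not called.

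**Figure D2:**
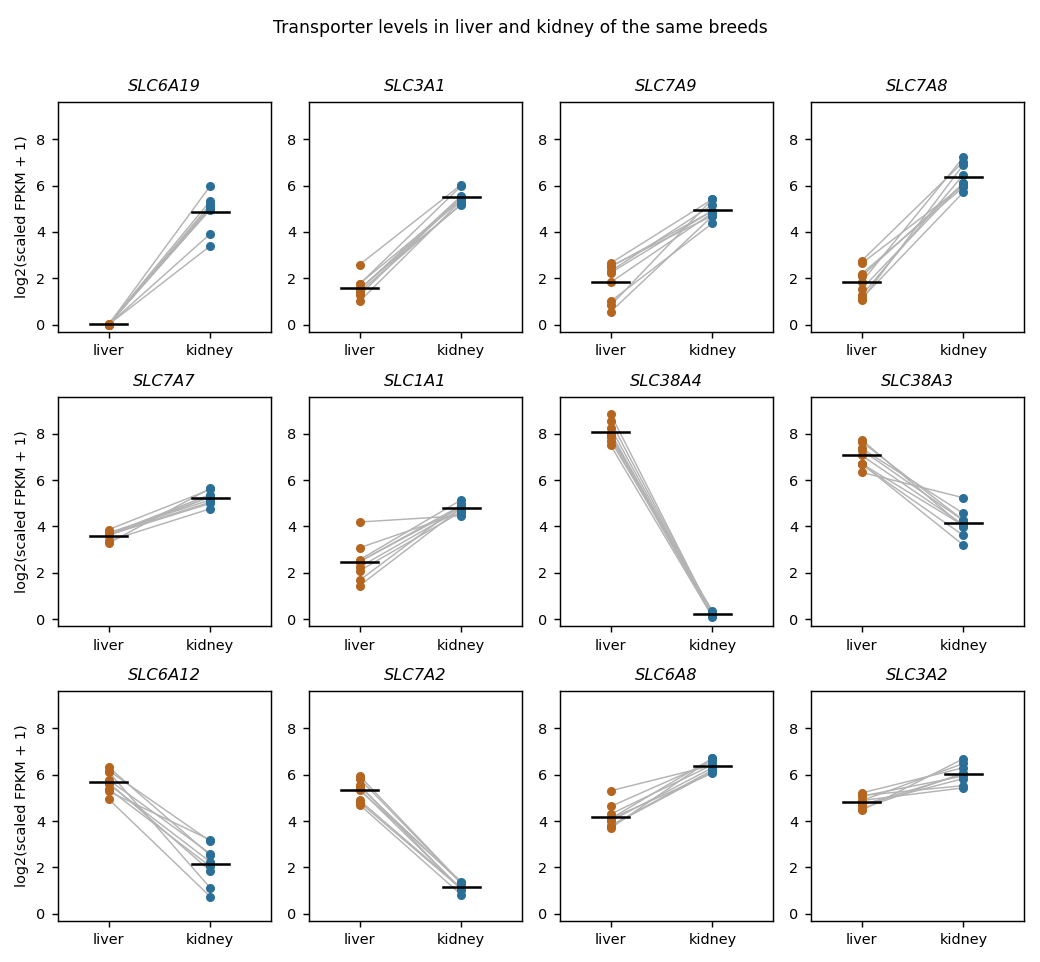
Levels of 12 transporter genes, as log2 of scaled FPKM plus 1, in liver (left) and kidney (right) of 9 breeds; grey lines join the libraries of a breed and black bars are means. SLC38A4, SLC38A3, SLC6A12 and SLC7A2 run down from liver to kidney in every breed, and the other 8 run up.

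Adipose was called for 2 transporter genes (the background over all genes is 1.69%). SLC1A5 ranged from 130 to 233 scaled FPKM in adipose with a median of 160, against 44.5 to 75.2 with a median of 56.9 in kidney, the nearest class. The tissues did not overlap, and the difference was 1.51 ± 0.14 (log2, SE; limma, adjusted p = 2.943e-16). In adipose this 1 gene made up 41.8% of the summed level of all 46 genes. SLC36A2, a proton-coupled carrier of glycine, alanine and proline known as a surface marker of brown adipocytes in mice, ranged from 9.37 to 47.2 scaled FPKM in adipose with a median of 14.5. Its highest value elsewhere was 1.24, in the psoas of Bamei, and the difference over muscle was 3.74 ± 0.12 (log2, SE; adjusted p = 1.412e-39). Adipose also had the highest means of SLC1A3, a glutamate carrier (12.4 ± 2.77 scaled FPKM; SD, n = 9), and SLC7A10, the light chain for small neutral amino acids known from fat cells (3.05 scaled FPKM). SLC1A3 in adipose exceeded heart, at 6.85 ± 1.81 scaled FPKM (SD, n = 9), and the fitted difference of heart minus adipose was -0.78 ± 0.15 (log2, SE; limma, adjusted p = 1.028e-05). SLC38A10, an SLC38 member of Golgi and cell surface, was as high in liver as in adipose: liver minus adipose was -0.02 ± 0.08 (log2, SE; adjusted p = 0.835), with means of 24.9 and 25.6 scaled FPKM in these tissues.

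Lung and spleen were each called for 1 monoamine transporter (the background is 1.46% in lung and 2.92% in spleen). SLC6A2, the noradrenaline transporter, which in rodents takes up circulating amines in lung vessels, ranged from 3.54 to 10.9 scaled FPKM in lung with a median of 7.84. Adipose, the nearest class, ranged from 0 to 2.80, and the difference was 2.29 ± 0.12 (log2, SE; limma, adjusted p = 2.237e-27). SLC6A4, the serotonin transporter, was also highest in lung, at 4.21 to 15.3 scaled FPKM with a median of 7.97, but it was shared with heart (3.18 to 16.9) and ovary (1.98 to 7.46). SLC6A3, the dopamine transporter, ranged from 1.06 to 14.5 scaled FPKM in spleen with a median of 3.64, and did not pass 0.325 in any library of another single tissue. The difference over lung, the nearest class, was 2.08 ± 0.12 (log2, SE; adjusted p = 9.201e-25), and the call held without each breed in turn. Of the 3 neuron markers measured, SYT1 had a median of 0.0538 scaled FPKM in spleen and SNAP25 0.973, while STMN2 had 37.2; their part in the SLC6A3 level was not tested.

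Ovary was called for 2 transporter genes of low level (the background over all genes is 5.49%). SLC7A3, a cationic carrier, ranged from 1.09 to 3.74 scaled FPKM in ovary with a median of 1.38, against at most 0.170 in kidney, the nearest class (1.24 ± 0.06, log2, SE; limma, adjusted p = 1.725e-30). SLC6A7, the proline carrier known from brain, ranged from 0.355 to 2.57 scaled FPKM with a median of 1.59, against 0.0788 to 0.376 in kidney (1.08 ± 0.07, log2, SE; adjusted p = 6.777e-22). The lowest ovary, that of Meishan, lay within the kidney range for SLC6A7. Both calls sit near the limit of 1 and are lost with quantile normalization, at 0 genes, while FPKM as deposited gives 4.

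Heart and skeletal muscle were called for none of the 43 genes (the background is 1.37% in heart and 2.45% in skeletal muscle). SLC38A1, a glutamine carrier, came closest in heart, at 4.43, 8.20 and 15.4 scaled FPKM as lowest, median and highest value, against 3.56, 5.54 and 6.63 in ovary, so the ranges overlapped. Heart exceeded ovary by 0.62 ± 0.16 (log2, SE; limma, adjusted p = 4.130e-04).

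The remaining genes were spread more evenly. SLC38A2 is the widespread glutamine and alanine carrier that cells raise when amino acids run short. It had its highest mean in psoas at 19.5 ± 6.67 scaled FPKM (SD, n = 10) and its lowest in ovary at 3.02 ± 0.726 (SD, n = 9), with no overlap between these tissues. Psoas was its highest tissue in only 3 of 8 breeds. Skeletal muscle did not differ from liver beyond the spread between breeds (0.22 ± 0.16 in log2, SE, by limma, adjusted p = 0.205). SLC36A4 ran from a mean of 5.36 scaled FPKM in adipose to 2.17 in liver, SLC38A6 from 6.55 in kidney to 1.81 in heart, and SLC38A9 from 3.90 in spleen to 0.977 in ovary. SLC38A5 averaged 5.81 scaled FPKM in ovary and 5.80 in adipose, and 0.819 in liver.

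Ovary and kidney also shared low levels of several carriers. SLC7A4 averaged 1.76 scaled FPKM in ovary and 2.12 in kidney, SLC38A11 averaged 1.80 in ovary and 1.61 in kidney, and SLC6A15, a neuronal carrier of branched-chain amino acids and proline, averaged 2.51 in ovary and 0.962 in kidney. SLC6A20, a carrier of proline and related imino acids, averaged 1.68 scaled FPKM in liver and 0.775 in kidney, and its log2 difference of liver over kidney was 0.56 ± 0.10 (SE; limma, adjusted p = 2.620e-04), a call that is lost with FPKM as deposited.

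Below a mean of 1 scaled FPKM in every tissue were 6 genes, among them SLC1A6, SLC1A7, SLC6A13, SLC6A14 and SLC7A14. SLC1A6 and SLC1A7, glutamate carriers known from cerebellum and retina, were highest in ovary, at means of 0.891 and 0.655. SLC6A14, a broad carrier of neutral and cationic amino acids, was highest in lung at 0.582, in each of 8 breeds. SLC6A13, a GABA carrier, did not pass a mean of 0.437, and SLC7A14, a member known from brain and retina, was at most 0.0196.

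The heavy chain SLC3A2 serves many light chains and was present in all 9 tissues. It averaged 66.9 ± 19.6 scaled FPKM in kidney, 66.4 ± 22.7 in adipose (SD, n = 9 each) and 82.0 ± 31.7 in longissimus (SD, n = 10), and only 10.3 in heart. Kidney and adipose did not differ beyond the spread between breeds, at 0.04 ± 0.19 for kidney minus adipose (log2, SE; limma, adjusted p = 0.882). Kidney minus skeletal muscle, the class that takes psoas and longissimus together, was 0.19 ± 0.17 (adjusted p = 0.319), and longissimus alone was not tested against kidney. The order of longissimus and kidney turns with the scaling, since FPKM as deposited averaged 80.5 in kidney and 50.7 in longissimus. Over the mean log2 levels of the 9 tissues, the member most like SLC3A2 was a light chain, SLC7A8, with a Pearson r of 0.73, given as a description.

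Ratios within a library do not depend on that scaling. SLC3A2 over the summed level of SLC7A7, SLC7A8, SLC7A10 and SLC7A11 was 0.543 ± 0.143 in kidney and 4.61 ± 1.69 in adipose (SD, n = 9 each), with no overlap between them, since the ratio ran from 0.369 to 0.745 in kidney and from 2.74 to 7.03 in adipose. SLC7A5 and SLC7A6, light chains of the same heavy chain, are not in this sum. Which light chain led also changed with the tissue. SLC7A8 held 68.0% of that sum in kidney and 68.1% in longissimus on average, and SLC7A7 held 86.1% in lung, 74.3% in liver and 62.1% in heart. SLC7A11, the cystine and glutamate exchanger, held 19.8% in heart and 12.4% in ovary but 0.498% in longissimus. SLC7A10 held 20.004% in adipose.

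**Figure D3:**
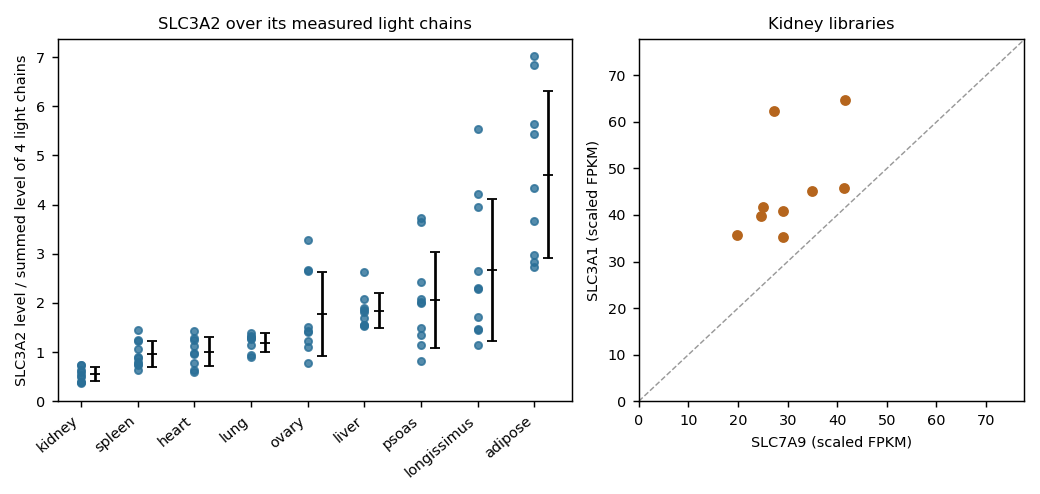
Left, SLC3A2 level divided by the summed level of 4 light chains in each single-tissue library (dots; black marks are mean ± SD over breeds); right, SLC3A1 against SLC7A9 in the 9 kidney libraries, with the line of equal levels dashed. The kidney ratios, up to 0.745, all lie below the adipose ratios, from 2.74, and every kidney lies above the dashed line.

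Among the carriers of cationic amino acids, the leading gene also differed by tissue. SLC7A2 held 96.8% of the summed level of the 5 cationic SLC7 genes in liver and 81.5% in longissimus, whereas SLC7A1, the widespread carrier, led in spleen with 71.2%. SLC7A1 averaged 5.39 ± 1.09 scaled FPKM in spleen (SD, n = 10) and 3.12 ± 0.913 in heart (SD, n = 9), and heart minus spleen was -0.65 ± 0.12 (log2, SE; limma, adjusted p = 1.856e-06). In the SLC1 family SLC1A5 led in 8 of 9 tissues. Liver was the exception, where SLC1A4 averaged 7.65 and SLC1A5 7.10 scaled FPKM and SLC1A4 was the highest of the family in 5 of 9 libraries.

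Psoas major and longissimus dorsi, muscles of different fibre makeup, were compared within 10 breeds (limma, breed as block). Of 21 transporter genes tested, 4 were higher in psoas and 4 lower (the background over all genes is 12.7% higher and 15.1% lower), none by more than 1 in log2. Without breed as block 0 were called in either direction by limma (the adjusted p of the 8 genes then ran from 0.0898 to 0.483), and over all genes 645 were called in place of 3360. Same-breed libraries of the 2 muscles deviated together in 10 of 10 breeds.

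SLC3A2 was the largest fall in psoas among those called, at -0.67 ± 0.09 (log2, SE; adjusted p = 5.061e-04), with 10 of 10 breeds lower. It had 14.1, 49.9 and 98.5 scaled FPKM as lowest, median and highest value in psoas and 30.8, 78.6 and 140 in longissimus, so the ranges overlapped while every pair had the same sign. Rongchang was the lowest and Tibetan wild boar the highest in both muscles. SLC1A5 (-0.41 ± 0.07), SLC38A5 (-0.28 ± 0.05), both lower in 10 of 10 breeds, and SLC7A10 (-0.20 ± 0.06) also fell. SLC38A5 carries glutamine, asparagine and histidine with sodium and protons.

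SLC38A4 rose most in psoas, by 0.68 ± 0.20 (log2, SE; limma, adjusted p = 0.0251), in 9 of 10 breeds. Its lowest, median and highest values were 19.0, 32.8 and 92.3 scaled FPKM in psoas and 9.12, 19.7 and 62.8 in longissimus, and Bamei was the highest in both. Its call is lost without Berkshire (adjusted p = 0.0518), without Hampshire (0.0547) or without Meishan (0.0502). SLC1A3 (0.36 ± 0.08), SLC7A7 (0.22 ± 0.07) and SLC38A9 (0.18 ± 0.05), the lysosomal arginine sensor, rose as well, SLC38A9 in 10 of 10 breeds. The call of SLC7A7 is lost when any single one of 7 breeds is left out, and that of SLC7A10 without Landrace, Jinhua or Meishan. Without Hampshire or without Meishan 2 genes were called higher in psoas in place of 4.

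In 9 breeds, heart was set against the average of psoas and longissimus (limma, breed as block). Of 25 transporter genes tested, 8 were higher in heart and 12 lower (the background over all genes is 35.5% higher and 33.7% lower), 4 and 6 of them by more than 1 in log2. With FPKM as deposited the split turned to 12 higher and 7 lower.

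Carriers of glutamine, serotonin and glutamate led the rise in heart. SLC38A1 was higher by 2.16 ± 0.11 (log2, SE), SLC6A4 by 1.71 ± 0.16, SLC1A2 by 1.41 ± 0.09 and SLC7A11 by 1.06 ± 0.13, each in 9 of 9 breeds (adjusted p at most 4.337e-07). SLC6A4 ranged from 3.18 to 16.9 scaled FPKM in heart with a median of 5.24, against at most 1.93 in longissimus. SLC1A2 ranged from 1.26 to 5.72 in heart, against at most 0.275 in longissimus. SLC7A11 ranged from 0.752 to 4.19 in heart with a median of 2.04, and averaged 0.230 in psoas and 0.147 in longissimus. None of these 3 genes overlapped between heart and longissimus.

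Lower in heart by more than 1 (log2) were 6 carriers. SLC38A4 differed by -4.12 ± 0.18 (log2, SE), SLC7A8 by -3.07 ± 0.30, SLC43A2 by -3.0 ± 0.19, SLC38A3 by -2.48 ± 0.13, SLC3A2 by -2.29 ± 0.13 and SLC7A2 by -1.69 ± 0.15, each in 9 of 9 breeds (adjusted p at most 4.673e-08). SLC38A4 averaged 0.136 scaled FPKM in heart, against 38.1 in psoas and 25.4 in longissimus. SLC43A2 averaged 2.86 in heart, against 35.0 in psoas and 40.5 in longissimus. SLC3A2 had 6.69 to 15.4 scaled FPKM in heart, with no library of longissimus below 30.8 and 1 of psoas, at 14.1 in Rongchang, within the heart range. SLC7A7 (-0.14), SLC38A2 (-0.28) and SLC38A9 (-0.17) were called lower in heart with small log2 differences that change sign with FPKM as deposited.

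**Figure D4:**
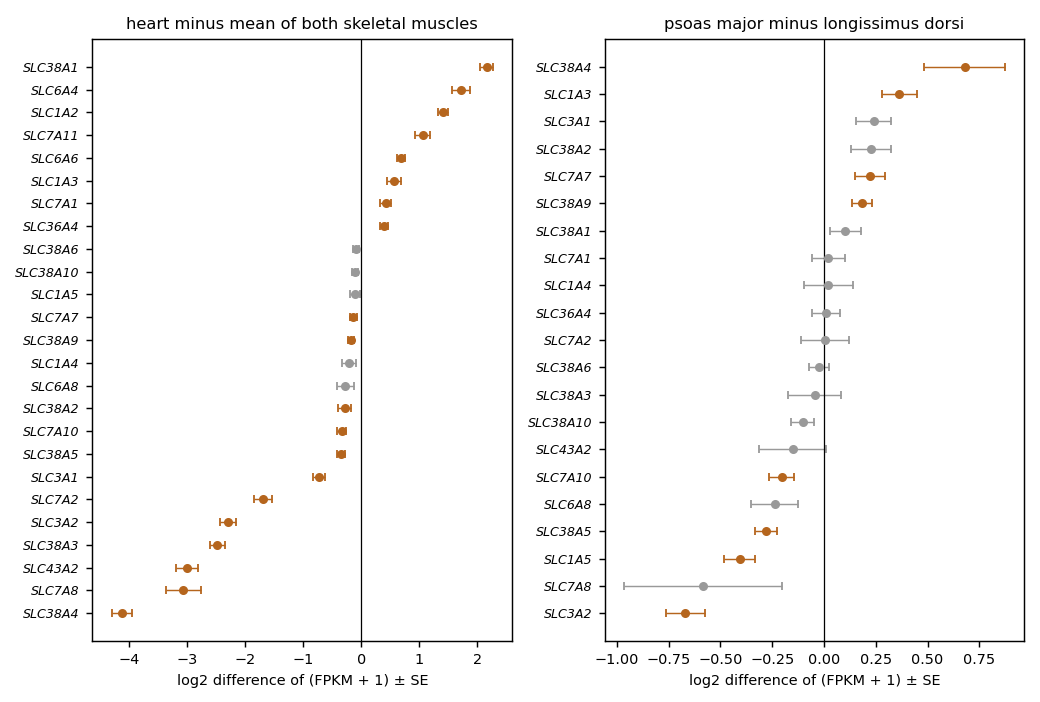
Fitted log2 differences (± SE) of the transporter genes tested in heart minus the average of psoas and longissimus over 9 breeds (left) and in psoas major minus longissimus dorsi over 10 breeds (right); brown marks genes called at adjusted p below 0.05 and grey the others. The differences reach -4.12 on the left and stay within 0.68 on the right.

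The mixtures were set against the mean level of the 9 single tissues of the same breed (8 breeds are complete) to see which transporters the mixtures hold beyond what those tissues give. Of 45 genes tested, 21 were higher in the mixtures and 9 lower (the background over all genes is 17.4% higher and 47.3% lower). With quantile normalization the split was 14 higher and 20 lower. The median log2 difference of the 45 genes was 0.16, against -0.13 over all genes. The mean counts each tissue equally, while marker sums differed in their share. Ovary markers summed to 0.397 to 3.97 scaled FPKM in the mixtures and to 327 to 1415 in ovary. Skeletal muscle markers summed to 391 to 4957, against 14046 to 42296 in psoas. Hepatocyte markers summed to 6020 to 18511, against 32055 to 81410 in liver. The part of tissue shares in the split was not tested.

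Carriers known from the brain were among the genes that rose. SLC1A2 was higher by 3.33 ± 0.17 (log2, SE), SLC1A3 by 2.98 ± 0.17 and SLC6A17, a vesicular carrier of neutral amino acids in neurons, by 1.51 ± 0.10, in 8 of 8 breeds (limma, adjusted p at most 1.242e-06). SLC1A2 had 10.5, 21.4 and 48.0 scaled FPKM as lowest, median and highest value in the mixtures, with the lowest in Meishan and the highest in Bamei. SLC1A3 had 21.3, 32.9 and 76.8, again with Meishan lowest and Bamei highest. Markers of glia and neurons were also looked at in the mixtures. Of the glia markers only GFAP is given here, so the breed order of glia markers as a set cannot be read from it. GFAP, the filament protein of astrocytes, ranged from 23.7 in Meishan to 128 in Hampshire in the mixtures with a median of 57.9 scaled FPKM, and did not pass 2.59 in any library of a single tissue. The 3 neuron markers summed to 33.7 to 124 in the mixtures, with the lowest in Rongchang and the highest in Bamei, against 26.8 to 61.4 in spleen and at most 18.3 in the other tissues. Their part in the result was not tested.

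SLC36A2 was lower in the mixtures by more than 1, at -1.36 ± 0.13 (log2, SE; limma, adjusted p = 1.467e-05), in 8 of 8 breeds. SLC1A5, the other gene called for adipose, was lower by 0.54 in size (-0.54 ± 0.05), but this turns to 0.14 where the mean of log2 levels is the comparison. Adipocyte markers (4 genes) summed to 21.0 to 54.8 scaled FPKM in the mixtures and to 1087 to 2247 in adipose. In longissimus they summed to 19.3 to 125. Their part in these differences was not tested.

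Genes that handle amino acids inside the cell were looked at beside the carriers, in lists chosen for their role. The lists were chosen with earlier results of these data known, and a gene with 1 high tissue passes the filter through that tissue. The counts called in these lists are therefore a description. Of 20 measured genes of amino acid breakdown and the urea cycle, 10 were called for liver (4.99% of all genes are), among them CPS1 and OTC, enzymes that start the urea cycle, by 8.40 ± 0.12 and 7.46 ± 0.07 (log2, SE) over the nearest class, and TAT and HPD of tyrosine breakdown by 7.79 ± 0.23 and 7.31 ± 0.23. Of 7 genes of creatine, taurine and betaine synthesis, 4 were called for liver, again against 4.99%, including GAMT (3.31 ± 0.18), the last enzyme of creatine synthesis, and BHMT (2.05 ± 0.10), which uses betaine. No gene of either list was called for kidney, against 2.71% of all genes. Of 9 tested partners and other carriers, 1 was called, for skeletal muscle (2.45% of all genes are). It was SLC16A10, the carrier of aromatic amino acids, at 14.9 ± 6.27 scaled FPKM in psoas and 22.7 ± 8.34 in longissimus (SD, n = 10 each), 2.57 ± 0.14 (log2, SE) above kidney (limma, adjusted p = 5.533e-27).

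Of 6 measured genes of the response to amino acid shortage, 1 was called, for ovary (5.49% of all genes are): ASNS, asparagine synthetase, at 36.5 ± 9.54 scaled FPKM (SD, n = 9), 1.99 ± 0.26 (log2, SE) above skeletal muscle (limma, adjusted p = 1.997e-10). Of 12 genes of lysosomal amino acid sensing, 0 were called for any class, against 23.1% of all genes. All 12 were tested, and between liver and kidney 5 of them were higher in liver and 4 lower, against 37.7% and 39.0% of all genes.

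Breed origin was compared as Chinese minus Western breeds. On the mean log2 level of a breed over 8 tissues, 0 of 41 transporter genes were called (limma), against 0.312% of all 16996 genes, and 3 had an unadjusted p below 0.05, against 8.32% of all genes. SLC3A2 was the gene with the smallest p, at -0.40 ± 0.10 (log2, SE; adjusted p = 0.225), and its breed means did not overlap between origins, as in 3.29% of all genes. In single tissues the origins overlapped: in kidney SLC3A2 ranged from 42.2 to 66.2 scaled FPKM in 4 Chinese breeds and from 45.2 to 102 in 5 Western breeds, and in adipose from 36.8 to 68.3 and from 53.6 to 98.3. SLC7A2 followed at -0.45 ± 0.13 (adjusted p = 0.319).

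Within each of the 9 tissues, 0 transporter genes were called by origin (limma). Over all genes the called share was 0.221% in kidney, 0.136% in liver, 0.222% in heart, 0% in spleen, 0.164% in lung, 0.0261% in psoas, 0.0432% in longissimus, 0.0929% in adipose and 0.0735% in ovary. At an unadjusted p below 0.05, between 0 (longissimus) and 3 (lung and adipose) transporter genes passed in a tissue, against 4.99% of all genes in longissimus, 7.99% in lung and 8.50% in adipose. Between the origins there was no overlap for SLC7A1 in heart (2.82% of all genes), for SLC1A4 and SLC7A2 in lung (5.17%), and for SLC7A7 and SLC7A8 in adipose (3.25%). SLC7A8 in adipose averaged 3.46 ± 0.772 scaled FPKM in 4 Chinese breeds and 1.70 ± 0.651 in 5 Western breeds (SD), a log2 difference of 0.75 ± 0.20 (SE; adjusted p = 0.366). SLC7A1 in heart averaged 2.33 ± 0.129 in 4 Chinese breeds and 3.75 ± 0.734 in 5 Western breeds (SD), a log2 difference of -0.47 ± 0.12 (SE; adjusted p = 0.242).

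Whether the tissue profile of a gene differs by origin was asked with a moderated F test of limma, which called 2 of 41 transporter genes (the background over all genes is 2.43%). Both are carriers of neutral amino acids that stand out in kidney. The test uses a common spread per gene over all tissues fitted, and both genes are low outside kidney. Its p therefore does not measure the spread between kidneys, which only the comparison in kidney alone does. SLC6A17 had 2.83 scaled FPKM in the kidney of Bamei, 4.67 in Jinhua, 1.498 in Meishan and 1.79 in Rongchang, against 1.52 in Berkshire, 0.788 in Hampshire, 0.604 in Landrace, 0.693 in Large White and 0.570 in Piétrain. The Chinese kidneys lay above the Western ones except that Berkshire was just above Meishan. The effect of origin on SLC6A17 spread over 0.99 (log2) between tissues (adjusted p = 1.177e-04), and in kidney alone it was 1.03 ± 0.26 (log2, SE; adjusted p = 0.246).

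SLC6A19 had 39.5 scaled FPKM in the kidney of Bamei, 30.1 in Jinhua, 62.3 in Meishan and 35.4 in Rongchang, against 33.1 in Berkshire, 31.3 in Hampshire, 31.0 in Landrace, 14.1 in Large White and 9.52 in Piétrain. The origins overlapped, with Jinhua below 3 Western kidneys. The effect spread over 0.90 (log2) between tissues (adjusted p = 0.0484), and in kidney alone it was 0.90 ± 0.39 (log2, SE; adjusted p = 0.534). The call of SLC6A19 is lost without Large White, Piétrain, Bamei, Jinhua, Meishan or Rongchang, with adjusted p between 0.0520 and 0.380, whereas SLC6A17 kept its call without each breed in turn. Both calls are lost with a pseudocount of 0.1, at adjusted p = 0.117 for SLC6A17 and 0.350 for SLC6A19. The proximal tubule markers summed to 442 to 554 scaled FPKM in the Chinese kidneys and to 471 to 939 in the Western ones, with overlapping ranges; their part in these results was not tested.

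**Figure D5:**
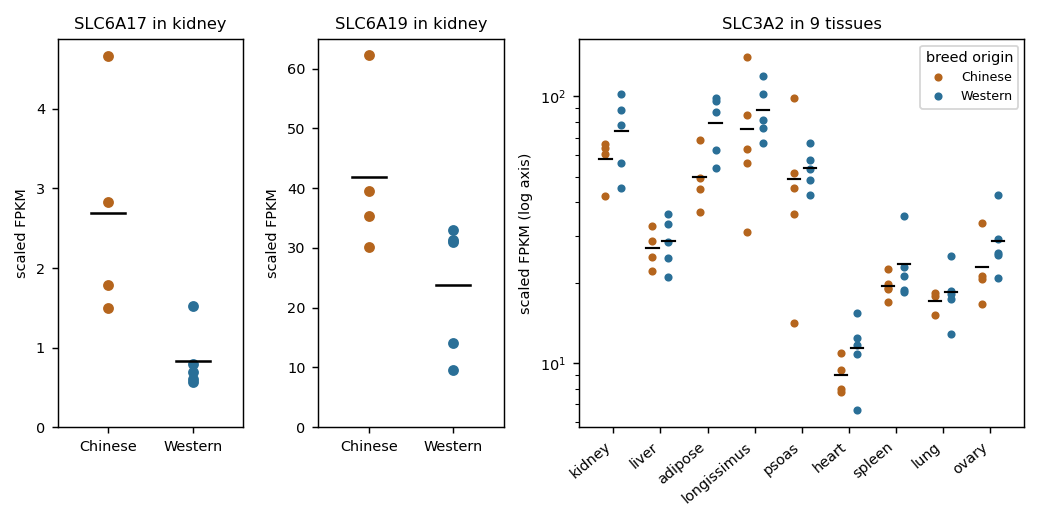
Levels in scaled FPKM of SLC6A17 and SLC6A19 in kidney (left and middle) in Chinese and Western breeds, and of SLC3A2 in 9 tissues (right, log axis); dots are libraries and black bars are means. In kidney, SLC6A17 runs from 1.498 to 4.67 in Chinese breeds and from 0.570 to 1.52 in Western breeds.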

How the data were processed

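RNA of 92 pig libraries was sequenced on an Illumina HiSeq instrument from TruSeq libraries, per the labels and the design text. The authors deposited 1 expression value per gene and library, made with TopHat and Cufflinks 2.2.1 on Sscrofa10.2, per the submitters' processing notes. No header names the unit. The deposited values are taken here as FPKM, from the use of Cufflinks and from the values themselves, and read depth is not given in the sources used here.

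From there, values were divided by median-ratio factors, a gene had to reach 1 FPKM in 3 or more of the libraries fitted, and log2(scaled FPKM + 1) was modelled with limma 3.58.1 (trend and robust options, statmod 1.5.0, R 4.3.3) with Benjamini-Hochberg adjustment over all genes tested. Fold changes on this scale understate the change of low genes. Levels in the text were scaled over all 92 libraries, and fits over their own libraries. A called gene had an adjusted p below 0.05. Figures used Python 3.11.15, pandas 2.3.3 and matplotlib 3.10.9. The fits were tested on simulated data with independent noise in each library. That noise held nothing shared within a breed, so the use of breed as block was not checked.

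Breed was the block in the tissue comparisons. Same-breed libraries deviated together: the correlations of their deviations were above 0.1 in 9 of 9 pairs of liver and kidney (median 0.258), in 10 of 10 of psoas and longissimus (median 0.369) and in 9 of 9 of heart and longissimus (median 0.292). No 2 libraries were duplicates.

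The members and gene lists were chosen with earlier results of these data known. Any member could be named, and values per library or the lowest, median and highest were given for members called in a tissue class, by more than 1 (log2) in a comparison or by origin, and for both heavy chains. Alternatives were other scalings, pseudocounts, filters and thresholds, no block, and leaving out each breed. Planned descriptions of protein identity and promoter motifs were not run, since no sequences were used here. Some genes of the lists and of the families, and results that rest on them, are not reported here.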

Additional observations from a re-analysis of the deposited data

Results flagged for a closer look

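In 27 of 179 tests of a tissue group, over 33 genes, the highest library stood apart from the others by a gap larger than chance usually gives, and in none the lowest. Chance alone marks about 1 in 20 groups of normally distributed values, and the gaps were taken here on linear levels. On log2(level + 1), a scale tried after the values were seen, the same rule marked 12 highest libraries and 1 lowest. Of the 27 highest libraries marked on linear levels, Hampshire gave 7, Tibetan wild boar 6 and Bamei 5. Tibetan wild boar has 3 tissues only. The values below are those marked on linear levels, not all of which were marked on the log2 scale. They are scaled FPKM, each with the next highest library of the tissue, and the causes were not tested.

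In Hampshire, SLC6A4 had 16.9 in heart (next 7.01), SLC3A1 5.02 in liver (next 2.41) and SLC38A3 36.8 in kidney (next 22.7). SLC38A9 had 3.44 in the Hampshire longissimus (next 2.25). SLC3A2, the common heavy chain, stood apart in Hampshire in 3 groups, at 35.7 in spleen (next 23.0), 25.2 in lung (next 18.7) and 51.3 in the mixtures (next 39.4).

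In Tibetan wild boar, SLC6A3 had 14.5 in spleen (next 7.03), SLC1A2 2.29 (next 1.12) and SLC38A5 6.04 (next 4.41). In its muscles, SLC1A3 had 10.001 in psoas (next 6.66) and 9.69 in longissimus (next 5.02), and SLC7A8 had 89.5 in longissimus (next 34.4). SLC1A3 thus stood apart in both muscles of this breed.

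In Bamei, the glutamate carriers SLC1A2 and SLC1A3 had 48.0 (next 26.6) and 76.8 (next 39.1) in the mixture, where SLC6A7 had 2.42 (next 1.26). The sum of neuron markers was highest in the same mixture. GFAP, the only glia marker given here, was highest in the Hampshire mixture, at 128. SLC1A3 also had 7.93 in the Bamei lung (next 3.88), and SLC38A4 had 92.3 in its psoas (next 43.5).

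The other breeds gave fewer such values. In Meishan, SLC6A8 had 38.6 in liver (next 23.8), and in its ovary, which had the lowest sum of ovary markers, SLC7A11 had 8.56 (next 2.70) and SLC7A3 had 3.74 (next 1.64). In Jinhua, SLC38A1 had 8.31 in liver (next 4.31) and SLC3A1 had 11.06 in ovary (next 6.57). In Piétrain, SLC1A1 had 17.3 in liver (next 7.47) and SLC6A4 had 15.3 in lung (next 9.20). SLC1A4 had 2.60 in the Berkshire heart (next 1.43), and SLC7A2 had 5.69 in the Landrace spleen (next 2.83).

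The effect of breed origin differed between tissues for 2 genes by a moderated F test of limma. It spread over 0.99 (log2) for SLC6A17 and over 0.90 for SLC6A19, in both cases with the largest levels in kidney.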

How the results depend on the processing

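Depth is unknown, so low values carry an error that cannot be given, and 1 library per breed and tissue sets the spread. Of single genes, 309 of 321 values kept their call and direction for tissue classes, 434 of 438 for liver against kidney, 293 of 312 for heart against muscle, 109 of 132 for psoas against longissimus, 399 of 437 for mixtures and 19 of 29 for origin by tissue.

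For counts of transporter genes, FPKM as deposited gave 4 for ovary, 6 higher in liver than in kidney and 7 lower in heart than in muscle. Quantile normalization gave 0 for ovary and 20 lower in mixtures. A pseudocount of 0.1 gave 2 for lung, 4 for ovary and 0 for origin by tissue. A filter at 5 FPKM, which tests fewer genes, gave 0 for ovary, 11 lower in liver, 2 higher and 2 lower in psoas, 3 higher in heart, 13 higher in mixtures and 0 for origin by tissue. A log2 limit of 2 gave 1 for adipose and 0 for ovary. Moderation without trend and robust options gave 1 for origin by tissue. Without breed as block, psoas gave 0 higher and 0 lower. Leaving out each breed gave 2 to 5 higher in psoas and 1 to 5 for origin by tissue, with 1 without Large White or Jinhua and 5 without Hampshire. Comparing mixtures with the mean of log2 levels gave 3 lower.

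Small log2 differences turned sign. In heart, FPKM as deposited gave 0.20 for SLC7A7, 0.096 for SLC38A2 and 0.070 for SLC38A9. In mixtures, quantile normalization gave -0.044 for SLC7A13, -0.15 for SLC6A15, -0.10 for SLC38A6, -0.073 for SLC7A10 and -0.030 for SLC6A13, and the mean of log2 levels gave 0.037 for SLC38A10, 0.29 for SLC6A8, 0.14 for SLC1A5, 0.11 for SLC6A4 and 0.12 for SLC3A2. The cause was not tested.

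Over all genes, FPKM as deposited called 488 for liver (859 with scaling), 397 for lung (251), 213 for skeletal muscle (421) and 1777 for ovary (944), and a pseudocount of 0.1 called 401 for lung. A log2 limit of 2 called 92 for heart (236), 424 for liver, 116 for spleen (502), 77 for lung, 206 for kidney (466), 162 for skeletal muscle, 93 for adipose (291) and 305 for ovary. Origin by tissue called 413 genes, against 201 with the pseudocount of 0.1, 255 with the filter at 5 FPKM, 265 without Landrace and 782 without Meishan. By origin within a tissue, the alternatives that moved the count gave 0 to 65 genes.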

Other observations

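Some genes had the same extreme breed in many tissues, which was seen in the values and not tested. Among the 8 breeds with all 9 tissues, SLC3A2 and SLC38A10 were highest in Hampshire in 6 of 9 tissues. SLC7A2, the cationic carrier, was lowest in Bamei in 7 of 9 tissues, from 25.04 scaled FPKM in the Bamei liver to 0.492 in the Bamei lung.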
